A study of Mus musculus with 20 samples.

Results

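The 10 genes described here encode the 5 subunits of the muscle acetylcholine receptor (Chrna1, Chrnb1, Chrnd, Chrne and Chrng), 3 proteins that gather the receptor under the nerve ending (Musk, Rapsn and Dok7), and 2 proteins that muscle fibres make in greater amount when they lose their nerve supply (Ncam1 and Runx1). They were chosen by gene name, with earlier results of these data known, and are 10 of the 17415 genes listed. The measurements are RNA-seq of mouse quadriceps muscle, 20 libraries in 4 groups of 5. The anterior cruciate ligament of the knee was cut surgically in 1 hind limb of each mouse (ACLT), and the other hind limb served as the uninjured control. Each mouse was sampled in both limbs, and equal library numbers within an antibody were taken as 1 mouse, which the labels do not state. The mice received a placebo antibody (PLA Ab, REGN1945) or a human monoclonal antibody against GDF8 (GDF8 Ab, REGN647) by subcutaneous injection. GDF8, also called myostatin, restrains muscle growth. The groups are therefore PLA Ab control, PLA Ab ACLT, GDF8 Ab control and GDF8 Ab ACLT, and the muscle was taken 7 days after injury. Every mouse carried the injury and every mouse received an antibody, so each control limb comes from an injured and treated animal. The study used adult mice of both sexes and gave the antibodies to C57BL/6J and Col1-eGFP animals, and the labels name no strain for these libraries. The experiment they belong to also counted cells that carry the Col1 reporter. Samples were not pooled. None of the groups was denervated by design.

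At the neuromuscular junction the motor nerve releases acetylcholine onto a patch of muscle membrane packed with receptors. Each receptor is a ring of subunits: alpha, beta and delta are present throughout life, whereas the fetal gamma subunit (Chrng) is replaced by the adult epsilon subunit (Chrne) as the junction matures. In innervated adult fibres electrical activity keeps receptor genes silent outside the junction, and after nerve injury alpha, beta, delta and gamma transcripts return along the fibre. Newly formed and regenerating fibres also make the gamma subunit before they are innervated. The nerve protein agrin acts through its receptor LRP4 on the muscle kinase MuSK, DOK7 binds and activates MuSK inside the fibre, and rapsyn anchors the receptors. E-boxes in receptor gene promoters are bound by the muscle transcription factors of the MyoD family, and N-boxes are bound by ETS-family factors, which direct junctional transcription.

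The regions before 3 of the receptor genes are shown because Chrng and Chrna1 moved together with injury while Chrne did not pass the test. Each is the RefSeq window in the mouse build GRCm38.p6 from 250 bases before to 50 bases after the annotated start of the gene, printed on the strand of the gene. Capitals mark the E-box form CAGCTG and the N-box CCGGAA. Chrng lies at chr1:87205561-87205860 (+ strand), Chrna1 at chr2:73580289-73580588 (- strand) and Chrne at chr11:70619145-70619444 (- strand).
Chrng: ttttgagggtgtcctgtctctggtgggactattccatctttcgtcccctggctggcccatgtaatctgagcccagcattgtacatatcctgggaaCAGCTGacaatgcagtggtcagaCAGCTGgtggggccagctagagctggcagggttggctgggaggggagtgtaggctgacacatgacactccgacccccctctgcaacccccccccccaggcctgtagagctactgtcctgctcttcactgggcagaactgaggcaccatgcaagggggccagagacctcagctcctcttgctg
Chrna1: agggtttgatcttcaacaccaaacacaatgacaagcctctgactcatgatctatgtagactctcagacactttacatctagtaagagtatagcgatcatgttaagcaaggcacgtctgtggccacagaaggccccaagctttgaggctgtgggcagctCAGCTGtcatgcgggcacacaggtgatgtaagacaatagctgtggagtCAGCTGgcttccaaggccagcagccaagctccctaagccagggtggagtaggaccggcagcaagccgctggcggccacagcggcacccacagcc
Chrne: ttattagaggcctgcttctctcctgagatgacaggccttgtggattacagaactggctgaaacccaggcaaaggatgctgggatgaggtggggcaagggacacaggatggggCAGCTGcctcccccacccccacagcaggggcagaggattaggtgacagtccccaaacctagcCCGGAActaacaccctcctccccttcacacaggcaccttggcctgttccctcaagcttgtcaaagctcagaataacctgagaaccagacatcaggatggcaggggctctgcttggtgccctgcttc
The Chrng window held CAGCTG at 2 places, with first bases 155 and 132 bases before the start. The Chrna1 window also held it at 2 places, 92 and 44 bases before the start. The Chrne window held CAGCTG once, at -138, and CCGGAA once, at -76. A window with at least 2 copies of CAGCTG occurred in 1.90% of all 32851 windows of this length, at least 1 copy in 16.3% and at least 1 CCGGAA in 14.9%, on either strand. Both motifs together occurred in 2.05% of windows. Windows were given for 7 of the 10 genes. The Musk window held CAGCTG once, at -68, 1 of the 2 Runx1 windows held CCGGAA at -106, and the windows of Chrnb1 and Dok7 held neither. The wider E-box form CANNTG, which includes CAGCTG, occurs in 72.3% of all windows. A match is a description of letters and was not tested as a binding site.

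**Figure D1:**
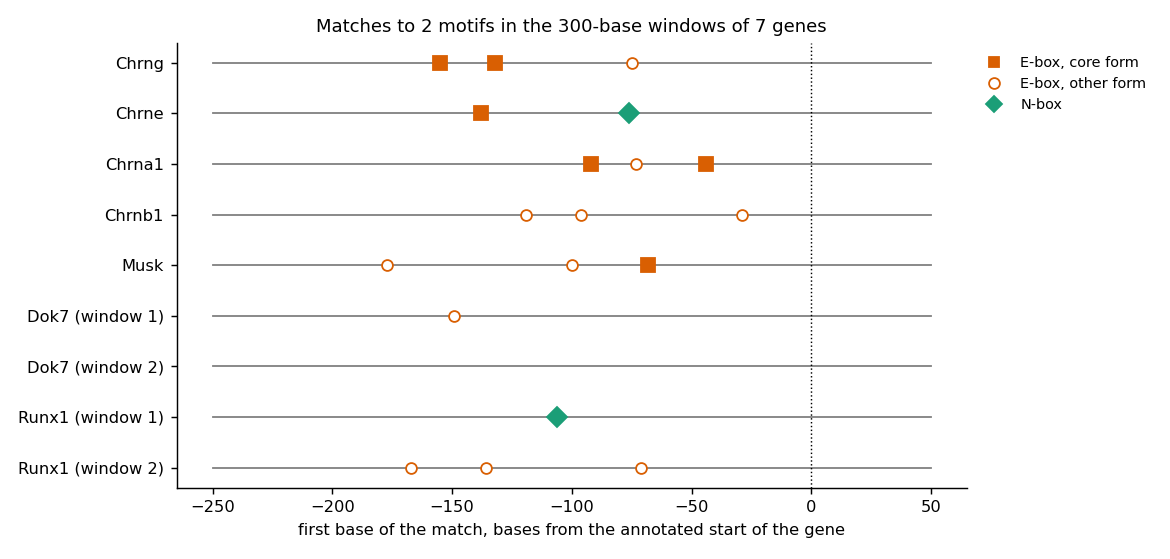
Matches to the E-box and N-box in the windows of 7 genes, 9 windows in all, with the first base of each match placed by its distance in bases from the annotated start of the gene. Filled squares are the core E-box form, open circles other E-box forms and diamonds the N-box; Chrng and Chrna1 each carry 2 filled squares, and Chrne carries 1 filled square and 1 diamond.

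The values are CPM, read counts that the authors scaled so that each library adds up to 1e+06. The depth read from the smallest steps between values was about 15600000 to 24200000 reads per library, and 3 reads, taken as the limit of detection, correspond to 0.124 to 0.192 CPM. This limit covers counting error only. Genes of the skeletal muscle fibre (10, among them Acta1, Ckm and Myh4) checked the tissue, with a summed level of 79638 to 145935 CPM in every library, and 0 of 10 passed in any comparison. The lowest sums were those of PLA Ab ACLT libraries 4 and 5, at 89318.5 and 79638 CPM. Fibroblast markers summed highest in the same libraries, at 12573 and 15969 CPM. The part of this difference in make-up in the levels of the 10 genes was not tested. Y-linked genes were expressed in 6 of the 20 libraries (PLA Ab numbers 1 and 3 and GDF8 Ab number 3, in both limbs), where the mean of 4 such genes was at least 30.8 CPM, against at most 0.403 CPM in the other 14. PLA Ab ACLT libraries stood apart from each other: numbers 2, 4 and 5, which lack Y-linked expression, were high for several of the genes below and numbers 1 and 3 were low. In whole muscle a lower level may reflect fewer cells of a type or less RNA per cell, and these cannot be told apart.

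The injured and uninjured limbs of the PLA Ab mice were compared first, to ask how these genes respond to the knee injury without GDF8 blockade. Of the 10 genes, 6 rose after injury (Chrng, Runx1, Chrna1, Ncam1, Chrnd and Chrnb1), 0 fell and 4 did not pass the test (Musk, Dok7, Chrne and Rapsn). In the same comparison 28% of all 13502 tested genes rose and 1.49% fell (29.5% together). That split depends on the scaling: with median-of-ratios scaling 2509 genes rose and 2146 fell, so that 53.9% of the called genes were higher instead of 94.96%. The median log2 fold change was 1.32 over the 10 genes and 0.19 over all tested genes. For 4 of the 10 genes (Chrng, Chrna1, Ncam1 and Runx1) every ACLT library lay above every control library, which was so for 10.3% of tested genes. The test was limma on log2(CPM + 1), with Benjamini-Hochberg adjustment over all tested genes. Chrng reached the filter on low values (1 CPM in 5 libraries) only through the PLA Ab ACLT group, and such a gene had to be higher there.

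Chrng, the fetal gamma subunit, showed the largest fitted change of the 10. Its level in PLA Ab control libraries 1 to 5 was 0.0846, 0, 0.139, 0.128 and 0.124 CPM. In PLA Ab ACLT libraries 1 to 5 it was 3.16, 17.3, 5.27, 33.7 and 52.3 CPM. The groups did not overlap, and libraries 4 and 5 were the highest and 1 and 3 the lowest. Summed over each group this is 10 reads in control limbs (0.0942 CPM, 95% exact Poisson interval 0.0452 to 0.173) and 2359 reads in ACLT limbs (22.5 CPM, 21.6 to 23.5), with intervals for counting error only. Means were 0.0951 ± 0.0570 CPM without and 22.3 ± 20.7 CPM with injury (SD, n = 5), and the fitted log2 fold change was 3.82 ± 0.47 (SE) with adjusted p = 0.000131 (limma). The change on this scale is held down by the added 1 CPM, because the control level is far below it.

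Chrne, the adult epsilon subunit, did not pass the test. It stood at 6.94, 10.2, 10.8, 11.6 and 10.9 CPM in the PLA Ab control libraries, numbered 1 to 5, and at 16.9, 11.8, 12.2, 11.1 and 7.90 CPM in the ACLT libraries. Within the ACLT group the order ran opposite to that of Chrng at its ends: library 5 was the lowest for Chrne and the highest for Chrng, and library 1 was the highest for Chrne and the lowest for Chrng. The log2 fold change was 0.21 ± 0.17 (adjusted p = 0.353, limma), with a 95% interval of -0.14 to 0.56. With median-of-ratios scaling it was -0.03. Chrne overlaps 4930544D05Rik on the opposite strand, which averaged 1.61 CPM. The strand setting of the counting is not given in the sources used here, so reads of the shared stretch cannot be told apart.

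The ratio of Chrng to Chrne in the same library compares the fetal with the adult subunit. It was taken as log2 of (Chrng + 0.1) over (Chrne + 0.1) in CPM. Its mean was -5.75 ± 0.55 in PLA Ab control limbs and 0.25 ± 2.06 in ACLT limbs (SD, n = 5), a difference of 6.004 with no overlap (two-sided exact permutation p = 0.00794, the smallest that 5 against 5 can give, adjusted p = 0.0198 over 5 comparisons). This test took the limbs as unpaired. Chrng in control limbs lay at or near the 3-read limit, so the size of any difference from control limbs on this scale depends on the added 0.1 CPM. Per base of transcript, taking for each gene the longest protein-coding transcript in the GENCODE annotation, Chrng made up 9.79%, 46.1%, 20.004%, 63.8% and 79.4% of the sum of both subunits in ACLT libraries 1 to 5. It made up at most 0.740% in the control libraries. Libraries 4 and 5 thus held more gamma than epsilon transcript per length, and libraries 1, 2 and 3 held less.

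**Figure D2:**
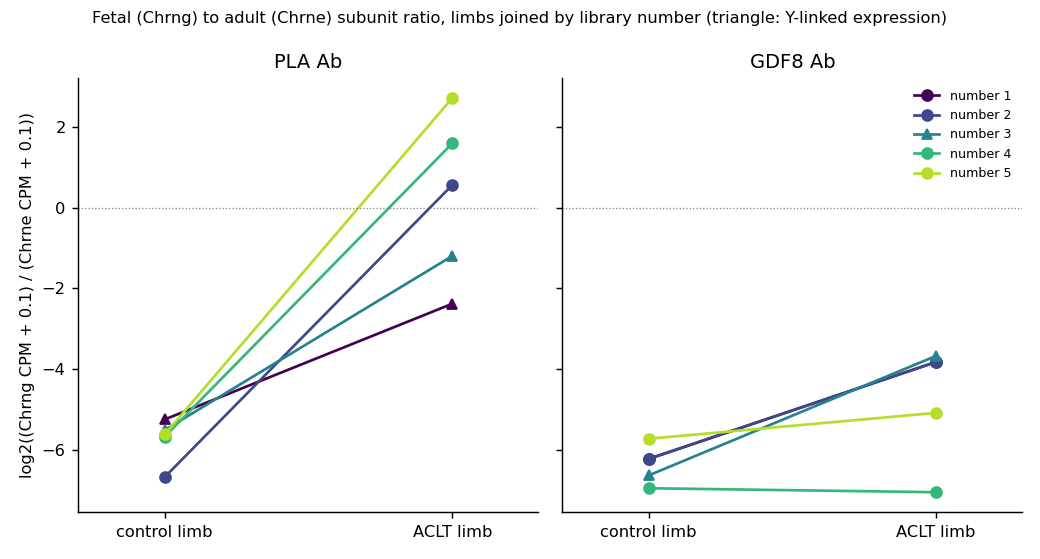
Log2 ratio of Chrng to Chrne (y axis, from CPM with 0.1 added to each) in the control and ACLT limb, 1 point per library, with limbs of the same library number joined and PLA Ab and GDF8 Ab in separate panels; triangles are libraries with Y-linked expression. Under PLA Ab all 5 lines rise, to between -2.39 and 2.71, while under GDF8 Ab the ACLT limbs end between -7.05 and -3.68.

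Chrna1, the alpha subunit that carries most of the acetylcholine binding site, was 8.25, 12.6, 8.14, 11.4 and 12.2 CPM in PLA Ab control libraries 1 to 5. In the ACLT libraries it was 25.02, 77.4, 21.2, 125 and 190 CPM. The groups did not overlap, and ACLT libraries 1 and 3 were again the lowest. Means of 10.5 ± 2.18 and 87.8 ± 71.3 CPM (SD, n = 5) gave a rise of 2.50 ± 0.44 on the log2 scale (adjusted p = 0.000910, limma).

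Chrnd, the delta subunit, was 1.27, 2.04, 1.94, 3.59 and 2.52 CPM in the PLA Ab control libraries, numbered 1 to 5, and 2.91, 16.2, 3.79, 21.6 and 30.7 CPM in the ACLT libraries. Only ACLT library 1 lay within the control range. The rise on the log2 scale was 1.89 ± 0.43 (adjusted p = 0.00439, limma). Chrnb1, the beta subunit, rose less, with 29.4, 28.7, 22.02, 31.9 and 24.96 CPM in control and 51.2, 51.5, 23.3, 63.3 and 54.5 CPM in ACLT libraries (log2 fold change 0.75 ± 0.21, adjusted p = 0.0123). ACLT library 3 lay within the control range and the other 4 lay above it. In a fit of the 2 PLA Ab groups alone adjusted p was 0.0609 for Chrnd and 0.0721 for Chrnb1. Without PLA Ab ACLT libraries 4 and 5, an alternative chosen after seeing the data, it was 0.0672 for Chrnd and 0.182 for Chrnb1. Chrna1, Ncam1 and Runx1 kept their calls in both, as did Chrng, whose direction the filter on low values had fixed.

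Compared per kilobase of transcript, the subunits kept a wide order of levels in PLA Ab control muscle. Chrnb1 had 12.7 ± 1.82, Chrne 6.25 ± 1.14, Chrna1 2.40 ± 0.50, Chrnd 0.77 ± 0.29 and Chrng 0.0342 ± 0.0205 CPM per kilobase (SD, n = 5). Each neighbour in this order was separated from the next, with no overlap between their ranges over the 5 libraries. In PLA Ab ACLT muscle the levels were 22.6 ± 6.98 for Chrnb1, 20.01 ± 16.3 for Chrna1, 8.04 ± 7.43 for Chrng, 7.42 ± 2.003 for Chrne and 5.10 ± 4.02 for Chrnd. The ranges of all neighbours in this order overlapped.

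Of the proteins that gather the receptor, none passed the test under PLA Ab. Musk, the receptor kinase that starts clustering, was 14.6, 4.61, 15.5, 6.35 and 9.32 CPM in the PLA Ab control libraries, numbered 1 to 5, and 13.2, 11.4, 14.0005, 15.8 and 25.7 CPM in the ACLT libraries. The control libraries with Y-linked expression, 1 and 3, were the highest of their group and lay within the ACLT range. The log2 fold change was 0.69 ± 0.32 (adjusted p = 0.111, limma). Among libraries without Y-linked expression alone (3 per PLA Ab group, chosen after seeing the data) it was 1.23 and passed (adjusted p = 0.00257), in a fit that called 6060 of the 13502 genes against 3987 in all 20 libraries.

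Dok7, the cytoplasmic activator of MuSK, ranged from 12.8 to 19.4 CPM in PLA Ab control and from 16.2 to 23.0 CPM in ACLT limbs. The log2 fold change was 0.31 ± 0.13 (adjusted p = 0.0701, limma), and with the mouse as a block in the fit adjusted p was 0.0324. It was 0.0478 without PLA Ab control library 5 and 0.0174 without PLA Ab ACLT library 1. Rapsn, the anchor of the receptor, ranged from 20.999 to 31.9 CPM without and from 21.4 to 31.7 CPM with injury. Its log2 fold change was 0.02 ± 0.12 (adjusted p = 0.931), with a 95% interval of -0.24 to 0.28. The 2 ranges nearly coincide. Rapsn overlaps Gm13778 on the opposite strand, which averaged 0.388 CPM. With median-of-ratios scaling its value was -0.25 (not called).

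Ncam1, a cell adhesion protein that spreads over the surface of denervated fibres and is also made by satellite cells and nerve, was 6.43, 4.89, 5.74, 4.62 and 6.23 CPM in PLA Ab control libraries 1 to 5. In the ACLT libraries it was 11.6, 47.2, 9.15, 76.2 and 132 CPM. No ACLT library was as low as any control library. Means were 5.58 ± 0.80 and 55.3 ± 51.2 CPM (SD, n = 5), with a rise of 2.47 ± 0.49 on the log2 scale (adjusted p = 0.00196, limma).

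Runx1, a transcription factor that limits wasting in denervated muscle and is also expressed in blood cells, was 2.58, 2.33, 2.68, 0.96 and 1.49 CPM in PLA Ab control libraries 1 to 5. In the ACLT libraries it was 6.51, 21.6, 7.99, 48.1 and 98.9 CPM. The groups did not overlap, and library 5 was the highest by a wide margin. From a control mean of 2.01 ± 0.75 CPM it reached 36.6 ± 38.6 CPM (SD, n = 5), a fitted log2 change of 3.02 ± 0.51 (adjusted p = 0.000768, limma).

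**Figure D3:**
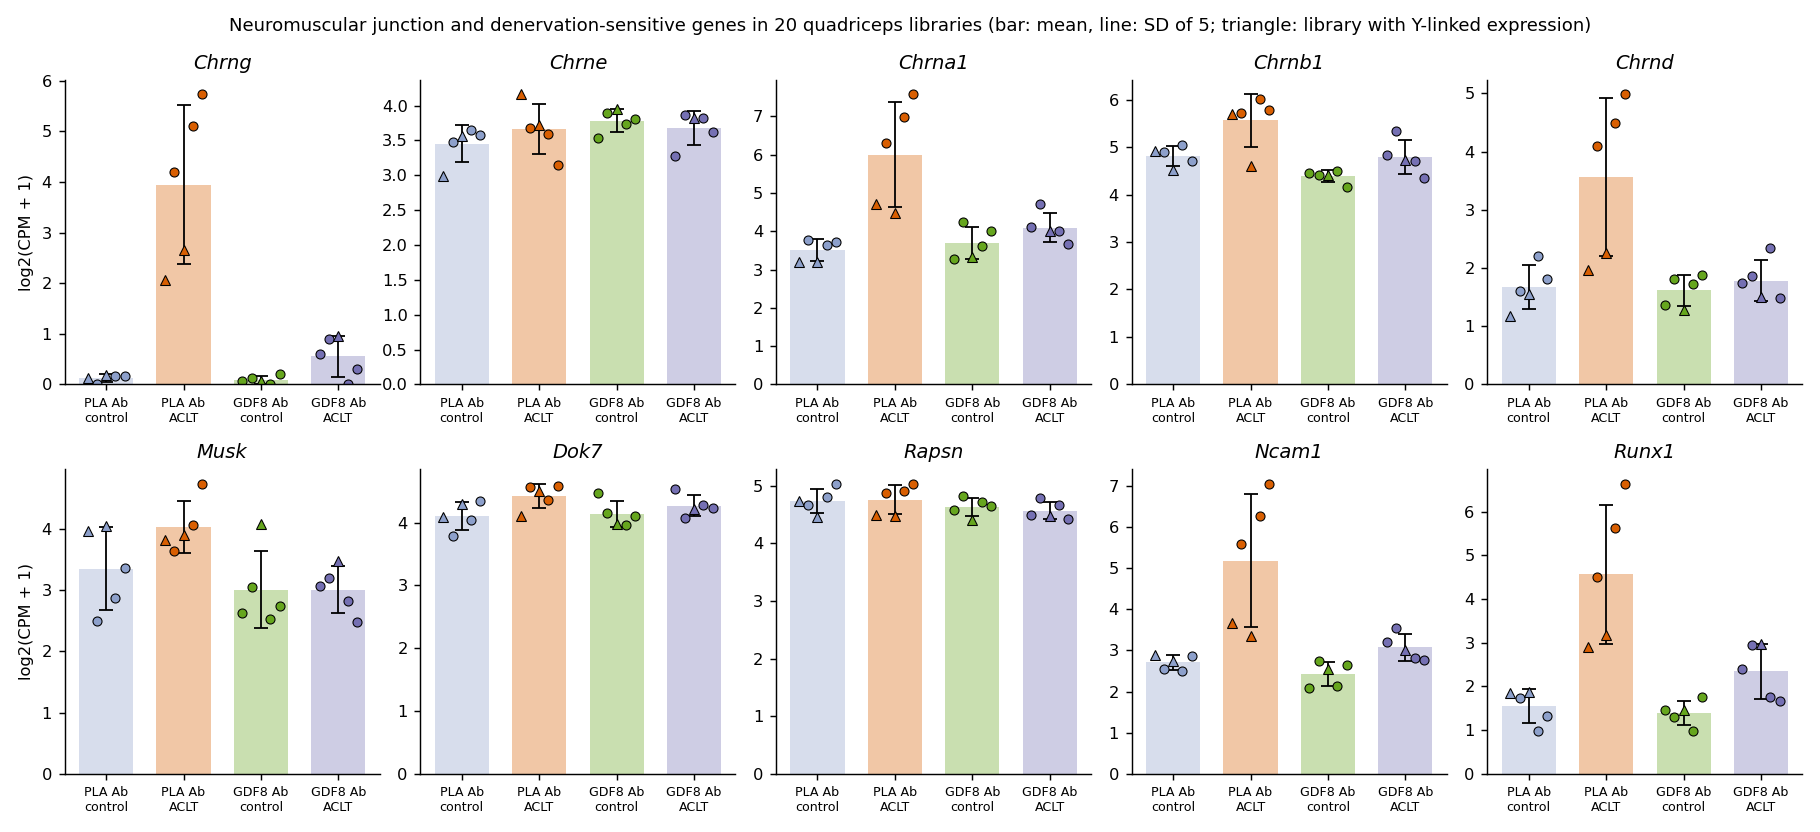
Level of each of the 10 genes as log2(CPM + 1) in the 20 libraries by group; bars are group means, lines the SD of 5 libraries and points single libraries, with triangles for those with Y-linked expression. Chrng, Chrna1, Ncam1 and Runx1 separate PLA Ab ACLT from PLA Ab control completely, whereas Chrne and Rapsn sit at like levels in all 4 groups.

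The libraries followed each other closely for the genes that rose. Over the 20 libraries, which share the 4 groups, the Pearson correlation of log2(CPM + 1) with Chrng was 0.96 for Chrna1, 0.97 for Ncam1, 0.97 for Runx1, 0.93 for Chrnd and 0.80 for Chrnb1. It was 0.65 for Musk and -0.16 for Chrne. In the PLA Ab ACLT group, libraries 1 and 3 were the 2 lowest for 7 of the 10 genes and library 5 the highest for 8. The span within that group was 16.6-fold from lowest to highest for Chrng, 15.2-fold for Runx1, 14.46-fold for Ncam1 and 8.98-fold for Chrna1, against 1.48-fold for Rapsn.

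**Figure D4:**
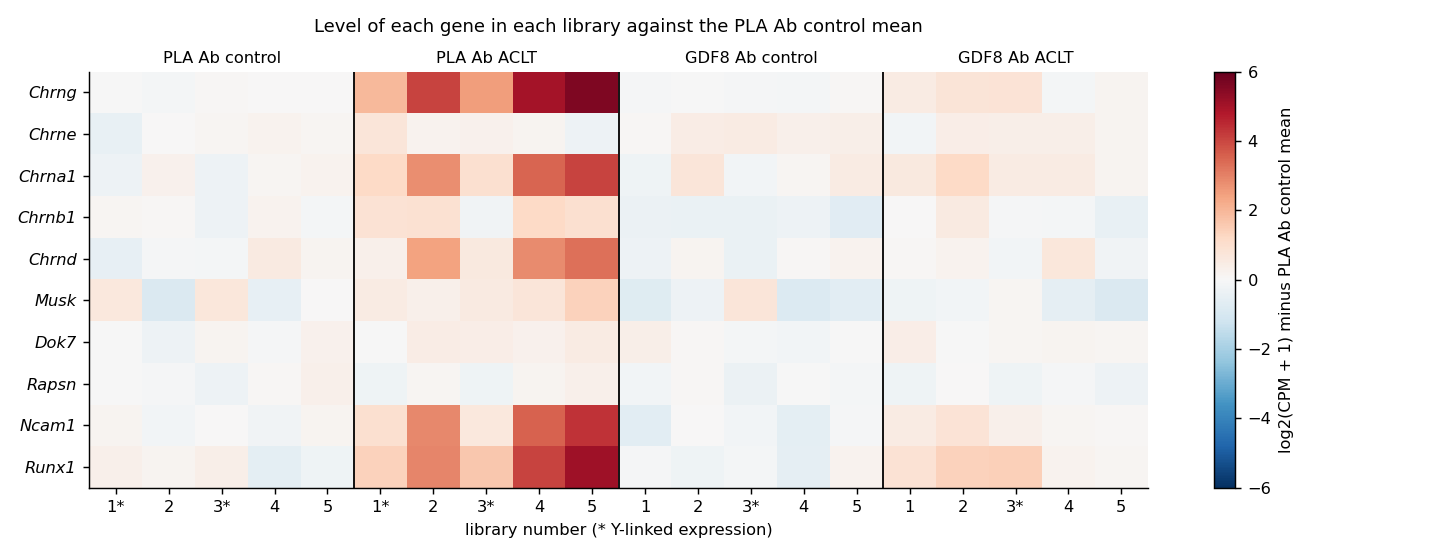
Each cell is the log2(CPM + 1) of a gene in a library minus the PLA Ab control mean of that gene, with libraries as columns in their 4 groups, genes as rows and libraries with Y-linked expression starred. PLA Ab ACLT libraries 2, 4 and 5 are the darkest columns for Chrng, Chrna1, Chrnd, Ncam1 and Runx1.

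Marker RNA of other cells and of newly formed fibres moved with these genes. Of 15 markers of satellite cells and regenerating fibres 13 rose under PLA Ab (median log2 fold change 2.17, against 0.19 over all genes), among them Myh3, the embryonic myosin, at 4.63 and Tnnt2, a troponin of immature fibres, at 3.70. All 16 markers of macrophages and blood cells rose, with Gpnmb, Cd68 (3.34 on the log2 scale) and Ctss (4.13) having the smallest p. Their summed level was 46.3 to 130 CPM in PLA Ab control and 383 to 2881 CPM in PLA Ab ACLT limbs. The regeneration markers summed to 3087 to 3771 and 3400 to 6307 CPM, of which Des, the desmin gene, averaged 3229.9 and 3764 CPM and did not pass (adjusted p = 0.214, limma). In PLA Ab ACLT libraries 1 to 5 the macrophage sum was 383, 788, 515, 1821 and 2881 CPM, in the same order as Chrng. Fibroblast markers rose in 10 of 11 (Postn and Col3a1 at 6.49 and 3.74), endothelial and mural markers in 3 of 12, and 1 of 2 lymphocyte and 1 of 1 neutrophil markers rose. The endothelial share is close to the 28% of all tested genes that rose. Markers of Schwann cells and nerve rose in 2 of 12 (Egr2 and Pmp22), summed to 33.8 to 94.3 and 49.9 to 104 CPM, and Mbp, a defining gene of myelin, did not pass the test. The Schwann cell share lies below that 28%. The part of these cells in the levels of the 10 genes was not tested.

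Partners of the 10 genes at the junction follow. The shares of the lists that follow are to be read against the 28% of all tested genes that rose, and none was tested against it. Of 14 genes of agrin and the synaptic basal lamina 5 rose (median 0.42), not far above that share, Nid2, Lama4, Hspg2 and Col4a5 having the smallest p (1.54, 1.53, 0.86 and 0.94). Ache, the esterase that ends the acetylcholine signal, rose by 0.55 on the log2 scale (adjusted p = 0.0241), with means of 35.6 ± 5.43 and 53.0 ± 11.4 CPM. Agrn, which encodes agrin, had a log2 fold change of 0.49 (adjusted p = 0.0545), Colq, which anchors the esterase, 0.44 (0.0929), and Lrp4, the agrin receptor, 0.21 (0.423). Of 21 postsynaptic scaffold and signalling genes 9 rose (median 0.43), including Erbb2 and Erbb3, receptors for neuregulin, at 1.34 and 1.22, and the syntrophins Sntb1 and Sntb2 at 1.36 and 0.97. Scn4a, the sodium channel of adult muscle, had -0.10 (adjusted p = 0.433). Neither of the 2 tested neuronal receptor subunit genes passed.

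Genes that control junctional transcription rose in 6 of 21 (median 0.29), about the share of all tested genes. Myog, the MyoD-family factor that binds E-boxes of receptor genes, rose by 2.97 ± 0.53 on the log2 scale (adjusted p = 0.00106), with means of 4.68 ± 1.48 and 60.7 ± 51.9 CPM, followed by Nfatc4, Msc and Myf5 at 1.41, 1.54 and 0.74. Etv5, an ETS factor of the junction, rose by 0.41 (adjusted p = 0.0384), and Gabpa, an ETS factor that binds N-boxes, had 0.16 (adjusted p = 0.299). Myod1 had 0.69 (adjusted p = 0.0891), and Hdac4 and Dach2, which link nerve activity to Myog, had -0.01 and -0.41 (adjusted p = 0.945 and 0.424). Of 20 other denervation-responsive genes 10 rose (median 0.63). Among these, Nes, an intermediate filament of junctions and new fibres, rose by 1.61. Myog, Myod1, Myh3 and Myh8 stand in this list and in the regeneration list, and Myog, Myod1, Hdac4 and Dach2 in this list and among the transcription genes.

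The same was asked of the mice with GDF8 blocked. Of the 10 genes 0 passed the test, where 0.0222% of all tested genes did (3 of 13502, limma). At an unadjusted p under 0.05 there were 0 of the 10 genes and 346 of all genes (2.56%). The median log2 fold change was 0.29 over the 10 genes and 0.05 over all. Chrng stood at 0.0417, 0.0869, 0.0458, 0 and 0.146 CPM in GDF8 Ab control libraries 1 to 5 and at 0.520, 0.866, 0.932, 0 and 0.236 CPM in the ACLT libraries. ACLT libraries 1, 2, 3 and 5 lay above every control library and library 4 was at 0. Summed over the groups this is 7 reads (0.0621 CPM, 95% exact Poisson interval 0.0250 to 0.128) and 56 reads (0.521 CPM, 0.394 to 0.677). The log2 fold change was 0.46 ± 0.47 (adjusted p = 0.9999), with a 95% interval of -0.53 to 1.45. The fit gives each gene 1 spread over all 4 groups, so the SE of Chrng is the same as under PLA Ab. The SD of Chrng was 20.7 CPM in PLA Ab ACLT limbs and 0.400 CPM in GDF8 Ab ACLT limbs. The interval is therefore not the spread of the GDF8 Ab mice alone. In a fit of the GDF8 Ab groups alone none of the 10 genes passed either.

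The Chrng to Chrne ratio had means of -6.36 ± 0.46 in control and -4.69 ± 1.44 in ACLT limbs under GDF8 Ab (SD, n = 5). The difference of 1.66 did not pass (two-sided exact permutation p = 0.0635, adjusted p = 0.0794). Without GDF8 Ab ACLT library 4, the library with no Chrng read, it was 2.25 and passed (adjusted p = 0.0265). Chrng made up 3.36%, 3.56%, 3.97%, 0% and 1.20% of both subunits per length in GDF8 Ab ACLT libraries 1 to 5.

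Ncam1 was the only gene of the 10 whose GDF8 Ab groups did not overlap, a separation seen upward in 1.75% of all tested genes. It was 3.25, 5.65, 4.85, 3.38 and 5.23 CPM in control and 8.27, 10.7, 7.06, 6.01 and 5.85 CPM in ACLT libraries 1 to 5 (log2 fold change 0.64 ± 0.49, adjusted p = 0.9999, limma). Runx1 was 1.75, 1.48, 1.74, 0.98 and 2.39 CPM in control and 4.27, 6.75, 6.84, 2.38 and 2.17 CPM in ACLT libraries, with libraries 1, 2 and 3 above every control. Its log2 fold change was 0.95 ± 0.51 and did not pass. Chrna1 had means of 12.4 ± 4.02 and 16.6 ± 5.06 CPM (log2 fold change 0.41 ± 0.44), Chrnb1 20.1 ± 1.88 and 27.4 ± 7.40 CPM (0.40 ± 0.21) and Chrnd 2.10 ± 0.57 and 2.53 ± 0.93 CPM (0.17 ± 0.43). Each of these 3 overlapped between the limbs. The other 4 genes had log2 fold changes between -0.10 (Chrne) and 0.13 (Dok7). As for Chrng, the SE of these genes include the spread of the PLA Ab ACLT group and are not those of the GDF8 Ab mice alone. In all 13 gene lists 0 members passed under GDF8 Ab. The macrophage sum was 67.7 to 115 CPM in GDF8 Ab control and 116 to 412 CPM in GDF8 Ab ACLT limbs.

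**Figure D5:**
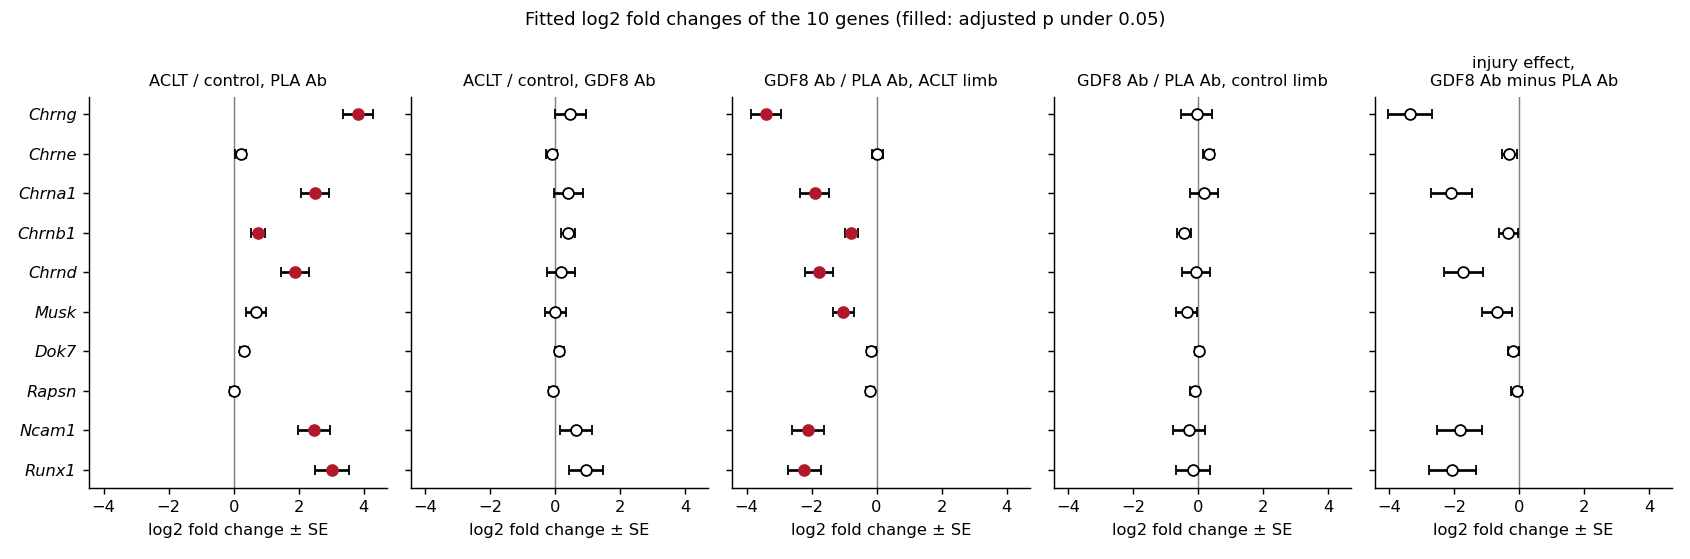
Fitted log2 fold change with its SE (x axis) of the 10 genes (rows) in 5 comparisons (panels), where filled points have an adjusted p under 0.05. Filled points number 6 for ACLT against control under PLA Ab and 7 for the antibodies compared in injured limbs, and 0 in the other 3 panels.

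Injured limbs were then compared between the antibodies, to ask how GDF8 blockade alters these genes after injury. In the GDF8 Ab mice 7 of the 10 genes were lower (Chrng, Chrna1, Ncam1, Runx1, Chrnd, Chrnb1 and Musk), 0 were higher and 3 did not pass (Chrne, Rapsn and Dok7). Of all tested genes 17.6% were lower and 0.733% higher (18.3% together). With median-of-ratios scaling 1181 genes were lower and 613 higher, so that 34.2% of the called genes were higher instead of 4.00%. The median log2 fold change was -1.40 over the 10 genes and -0.20 over all. The injured PLA Ab libraries are the same as in the comparison under PLA Ab, so the calls of both rest on shared samples. Chrng and Musk were the 2 genes whose groups did not overlap, a separation seen downward in 4.21% of tested genes. Chrng passed the filter on low values only through the PLA Ab ACLT libraries. Its direction and lack of overlap here were therefore fixed in advance and add nothing to these counts.

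Chrng had a mean of 22.3 ± 20.7 CPM with PLA Ab and 0.511 ± 0.400 CPM with GDF8 Ab in ACLT limbs (SD, n = 5), a log2 fold change of -3.40 ± 0.47 (adjusted p = 0.00464, limma). The lowest PLA Ab library, at 3.16 CPM, lay above the highest GDF8 Ab library, at 0.932 CPM. The Chrng to Chrne ratio differed by -4.95 on the log2 scale with no overlap (-4.69 against 0.25, two-sided exact permutation p = 0.00794, adjusted p = 0.0198). Chrne itself had means of 11.996 ± 3.24 and 11.99 ± 2.04 CPM (log2 fold change 0.02 ± 0.17, adjusted p = 0.941, 95% interval -0.33 to 0.37).

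Musk was 13.2, 11.4, 14.0005, 15.8 and 25.7 CPM with PLA Ab and 7.39, 8.14, 10.2, 6.06 and 4.58 CPM with GDF8 Ab in ACLT libraries 1 to 5. All 5 GDF8 Ab libraries lay below all 5 PLA Ab libraries. The log2 fold change was -1.03 ± 0.32 (adjusted p = 0.0381, limma). The call did not hold in several alternatives: adjusted p was 0.053 when genes were required to reach 10 CPM, 0.081 with median-of-ratios scaling, and between 0.0571 and 0.125 when any 1 of PLA Ab ACLT libraries 4 and 5 or GDF8 Ab ACLT libraries 1, 2, 4 and 5 was left out.

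The other 5 genes had log2 fold changes of -1.91 ± 0.44 for Chrna1 (adjusted p = 0.0182), -2.11 ± 0.49 for Ncam1 (0.0182), -2.22 ± 0.51 for Runx1 (0.0182), -1.78 ± 0.43 for Chrnd (0.0201) and -0.77 ± 0.21 for Chrnb1 (0.0268). Each overlapped between the antibodies. For Chrna1 PLA Ab libraries 1 and 3, at 25.02 and 21.2 CPM, lay within the GDF8 Ab range of 11.6 to 25.1 CPM, and for Ncam1 PLA Ab library 3 at 9.15 CPM lay within 5.85 to 10.7 CPM. For Runx1 PLA Ab library 1, at 6.51 CPM, lay below the highest GDF8 Ab library at 6.84 CPM. Of the 7, only Chrng was still called without PLA Ab ACLT libraries 4 and 5 (adjusted p = 0.00202). The filter on low values had fixed the separation of Chrng between these groups, whichever libraries are left out. That it kept its call when libraries were left out is therefore no sign of stability. All 7 calls were lost in a fit of the 2 ACLT groups alone, which called 0 genes of 13502 (adjusted p = 0.178 for each of the 7), and all but that of Chrng were lost without PLA Ab ACLT library 4, GDF8 Ab ACLT library 4 or GDF8 Ab ACLT library 5. Without PLA Ab ACLT library 4 adjusted p was 0.0718 for Chrna1, Ncam1 and Runx1 and 0.0796 for Chrnd, without GDF8 Ab ACLT library 4 it was 0.0539 for Chrna1 and Ncam1, and without GDF8 Ab ACLT library 5 it was 0.051 for these 2 genes.

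Among the lists, 12 of 15 regeneration markers and 16 of 16 macrophage markers were also lower with GDF8 Ab in the ACLT limb (medians -1.83 and -1.85), with Tnnt2 at -2.86 and Gpnmb at -2.41. Of the denervation-responsive genes outside the 10, 6 of 20 were lower, among them Myh3 (-3.90), Myog (-2.54) and Nes (-1.24). Myh3 and Myog also stand in the regeneration list. The other 14 did not pass, among them Hdac4 (-0.09), Dach2 (0.31) and Myod1 (-0.31). Of the agrin and basal lamina genes 4 of 14 were lower, of postsynaptic genes 3 of 21 (Sntb1 at -1.47, Erbb3 at -1.16 and Shc4 at -0.47) and of transcription control genes 5 of 21. Fibroblast markers were lower in 3 of 11, endothelial and mural markers in 3 of 12, lymphocyte markers in 1 of 2, neutrophil markers in 1 of 1 and Schwann cell and nerve markers in 0 of 12. The shares of the denervation-responsive, basal lamina, postsynaptic, transcription, fibroblast and endothelial lists were not tested against the 17.6% of all tested genes. They therefore do not show whether any of these lists stands apart. The part of these cells in the difference was not tested.

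The comparison of the antibodies in the control limb asks what GDF8 blockade does to these genes in uninjured muscle. None of the 10 genes passed, nor did any other of the 13502 (limma), and at an unadjusted p under 0.05 there were 0 of the 10 and 801 of all (5.93%). The median log2 fold change was -0.08 over the 10 genes and -0.04 over all. Chrnb1 was the only gene whose groups did not overlap: it was 29.4, 28.7, 22.02, 31.9 and 24.96 CPM with PLA Ab and 21.02, 20.3, 20.4, 21.7 and 16.8 CPM with GDF8 Ab. Such a separation downward occurred in 1.89% of tested genes. The log2 fold change was -0.43 ± 0.21 (adjusted p = 0.834). Chrne stood the other way, with means of 10.1 ± 1.84 and 12.8 ± 1.52 CPM (0.33 ± 0.17, adjusted p = 0.834). The SE of both log2 fold changes include the spread of the injured limbs. In a fit of the control limbs alone none of the 10 genes passed either. The Chrng to Chrne ratio differed by -0.61 (two-sided exact permutation p = 0.0873, adjusted p = 0.0873; without PLA Ab control library 2, which has no Chrng read, -0.84 and adjusted p = 0.0265), with Chrng at or near the 3-read limit in all 10 libraries.

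The interaction of antibody and injury asks whether the injury response itself differed between the antibodies. None of the 10 genes passed over all genes, nor did any other of the 13502 (limma). At an unadjusted p under 0.05 there were 5 of the 10 genes (Chrng, Chrna1, Runx1, Chrnd and Ncam1) and 16% of all tested genes. Chrng passed the filter on low values only through the PLA Ab ACLT libraries. That favoured a negative value here in advance, so Chrng adds nothing to this count. Chrng had a difference in log2 fold change of -3.36 ± 0.67 (adjusted p = 0.245), Chrna1 -2.09 ± 0.62, Runx1 -2.07 ± 0.73, Ncam1 -1.83 ± 0.69 and Chrnd -1.72 ± 0.61 (adjusted p = 0.258 for each of the last 4). All 5 passed without PLA Ab ACLT library 1 (adjusted p = 0.0141 for Chrng and 0.0333 to 0.0441 for the others), where 1076 of the 13502 genes did. They also passed among libraries without Y-linked expression alone, where Musk passed too (adjusted p = 0.0466, chosen after seeing the data) along with 3279 genes in all. The Chrng to Chrne ratio rose by 6.004 under PLA Ab and differed by 1.66 under GDF8 Ab, a difference of -4.34 between the antibodies (two-sided exact permutation p = 0.0159, adjusted p = 0.0265 over 5 comparisons). By library number the change was 2.87, 7.24, 4.31, 7.27 and 8.33 under PLA Ab and 2.41, 2.40, 2.96, -0.10 and 0.64 under GDF8 Ab. The permutation p rests on this pairing by number. The adjusted p was 0.0529 when any 1 of 14 of the 20 libraries was left out, and the 6 whose removal kept it under 0.05 were PLA Ab control 1 and 2, PLA Ab ACLT 1, GDF8 Ab control 3 and GDF8 Ab ACLT 3 and 4. The largest GDF8 Ab change, in number 3, exceeded the smallest PLA Ab change, in number 1, and the other values did not cross.

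The genes whose pattern was most like those of 4 of the receptor and clustering genes are given as a description over the 20 libraries, which share groups and scaling. For Chrng they were Mymk (Pearson r = 0.990), which makes myoblasts fuse, then Cdh2, a cadherin of muscle precursors, and the cell division genes Ccna2, Foxm1 and Top2a, all at 0.989 or 0.990. For Chrna1 they included Ccdc141, Atad2, Qsox1 and Ppfia4, at 0.974 to 0.976. For Musk they were Hip1r and Foxk1 (0.932 each), Prkacb, B930095G15Rik and Npc1. For Chrne the nearest were Neurl1a (0.665), Cpe, Rnf123, Eef1a2 and Myoz3, and no tested gene had a higher r with Chrne.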

How the data were processed

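RNA-seq values of 20 quadriceps libraries were used as deposited: CPM, read counts that the authors had scaled to a sum of 1e+06 per library over 17415 genes. The submitters' processing notes name STAR 2.7.3a, Partek, DESeq2 and the builds mm10 and mm39 without saying how each was used. The counting tool, its strand setting and any filter on low values are not given in the sources used here. Values were not whole reads (72.8 to 77.5% of values within 0.02 of one), so no count model was run. The authors' sequence positions did not match GRCm38.p6 (138 of 16001 gene starts within 1 base) and were not printed. Promoter windows are those of RefSeq.

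The 13502 genes that reached 1 CPM in 5 or more libraries were fitted as log2(CPM + 1) with limma 3.58.1 (R 4.3.3, trend), 4 group means in 1 fit, Benjamini-Hochberg adjustment over all tested genes and a threshold of 0.05. Each gene had 1 residual spread for all 4 groups. Its SE in comparisons of GDF8 Ab groups or of control limbs therefore includes the spread of the PLA Ab ACLT group. In comparisons with the PLA Ab ACLT group the SE likewise includes the spread of the other groups. For genes that spread most in PLA Ab ACLT limbs, SE and p there can be too small. Intervals used limma's 19.5 degrees of freedom. All 10 genes passed the filter and are all named with their values. Of 13 gene lists, up to 4 genes with the smallest p and known partners of the 10 genes are named. A few genes that this rule would name are not reported here. The Chrng to Chrne ratio was tested by exact permutation (SciPy 1.17.1). The limma fit was checked on simulated data for the comparison of PLA Ab ACLT with control only. Those data had the same relative spread in every group and unpaired libraries. The check therefore does not cover the wider spread of the PLA Ab ACLT group, and the permutation test was not simulated. The 10 genes and the lists were chosen with earlier results of these data known. Samples were grouped by their GEO titles. Both limbs of each mouse were sampled, and equal numbers within an antibody were taken to pair the limbs, which the titles do not state. Y-linked expression matched in 10 of 10 pairs, and deviations from the group means correlated at 0.0347 to 0.517, over 0.1 in 8 of 10 pairs. In 13 of 20 libraries the closest library of the other limb carried the same number. PLA Ab numbers 2 and 4 were closest to their own number in neither limb. Alternatives were other pseudocounts, filters and scaling, the mouse as a block, fits of the compared groups alone and leaving out each library. Y-linked expression as a covariate, libraries lacking it alone, its fit in control limbs, and PLA Ab ACLT libraries 4 and 5 left out were added after seeing the data.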

Additional observations from a re-analysis of the deposited data

Results flagged for a closer look

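Among 44 groups of 5 values examined (10 genes and the Chrng to Chrne ratio, in 4 groups each), 3 had an end value far from the rest, with a gap over the whole range above 0.71. Chance gives this in about 5% of groups. Gaps were taken on log2(CPM + 1) for the genes and on the log2 ratio, not on the CPM values printed here. Chrnb1 in PLA Ab ACLT library 3, at 23.3 CPM, had a gap of 0.785 of the range and was the only low library of its group. Chrnb1 in GDF8 Ab control library 5, at 16.8 CPM, had a gap of 0.737, and Chrne in PLA Ab control library 1, at 6.94 CPM, one of 0.738. The injury effect on the Chrng to Chrne ratio differed between the antibodies by -4.34 on the log2 scale (GDF8 Ab minus PLA Ab, two-sided exact permutation, adjusted p = 0.0265).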

How the results depend on the processing

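With the mouse as a replicate block, 1 of 50 results for the 10 genes changed its call (Dok7 under PLA Ab, log2 fold change 0.31, adjusted p = 0.0324) and no other. For the Chrng to Chrne ratio the block leaves 5 pairs, for which the exact sign-flip test cannot go below p = 0.0625 (PLA Ab injury effect 6.004), so this says nothing about stability. Genes called under PLA Ab injury and between the antibodies in injured limbs numbered 3987 and 2474. They were 1603 and 532 with at least 10 CPM, 732 and 0 in fits of the compared groups alone, and 1028 and 69 without PLA Ab ACLT libraries 4 and 5. With Y-linked expression as a covariate 4531 were called between the antibodies in injured limbs. In libraries lacking Y-linked expression the calls were 6060 and 6665, with 0 under GDF8 Ab injury, 2 between the antibodies in control limbs and 3279 for the interaction. With median-of-ratios scaling 53.9% of calls under PLA Ab injury were higher, against 94.96%, and 34.2% between the antibodies in injured limbs, against 4.00%, and the median of all genes moved from 0.19 to -0.04 and from -0.20 to 0.01. Leaving out 1 library at a time gave 2289 (without PLA Ab ACLT 4) to 5692 (without PLA Ab ACLT 1) genes under PLA Ab injury, 38 to 5320 (the same libraries) between the antibodies in injured limbs, 0 to 3 under GDF8 Ab injury, 0 in control limbs and 0 to 1076 for the interaction. The cause was not tested.

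The ratio under GDF8 Ab injury was 0.56 and in control limbs -0.37 with 1 CPM added, both then passing. Chrng was at most 0.146 CPM in control limbs, far below the added 1 CPM. The value in control limbs therefore follows Chrne almost alone, which was not called there (0.33 ± 0.17, adjusted p = 0.834, limma). Among libraries lacking Y-linked expression it was 7.61 under PLA Ab injury, -6.57 between the antibodies in injured limbs and -6.28 for the interaction, and without PLA Ab ACLT libraries 4 and 5 it was 4.74, -3.68 and -3.14. These did not pass, with fewer samples. Among libraries lacking Y-linked expression p was 0.1, 0.0571 and 0.0571 (two-sided exact permutation), each the smallest that so few libraries allow. Without PLA Ab ACLT libraries 4 and 5 it was 0.0357 under PLA Ab injury and in injured limbs, again the smallest possible, and 0.0714 for the interaction. At the smallest possible p, not passing says nothing about stability. Leaving out 1 library gave 5.39 to 6.66 under PLA Ab injury, 1.41 to 2.25 under GDF8 Ab injury, -5.61 to -4.33 in injured limbs, -0.84 to -0.46 in control limbs and -5.13 to -3.76 for the interaction.

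Directions reversed only for results that were not called. With median-of-ratios scaling these were Chrne (-0.032) and Rapsn (-0.25) under PLA Ab injury, Musk (-0.066) under GDF8 Ab injury, Rapsn (0.040) and Dok7 (0.069) between the antibodies in injured limbs, and Rapsn (0.10) and Dok7 (0.0048) for the interaction. With the Y-linked covariate it was Chrna1 (-0.012) in control limbs. In libraries lacking Y-linked expression they were Chrne (-0.095) under PLA Ab injury, Runx1 (0.040) in control limbs and Chrne (0.0021) for the interaction. Without PLA Ab ACLT libraries 4 and 5 they were Rapsn (-0.12) under PLA Ab injury, Chrne (-0.17) in injured limbs and Rapsn (0.057) for the interaction. Leaving out 1 library, Rapsn under PLA Ab injury ranged from -0.054 to 0.091, Chrnd in control limbs from -0.18 to 0.074, Dok7 there from -0.060 to 0.084, Chrne in injured limbs from -0.11 to 0.14, Musk under GDF8 Ab injury from -0.12 to 0.27 and Chrne there from -0.16 to 0.0014. At this depth Chrng in control limbs lies near the limit of 3 reads (0.124 to 0.192 CPM).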

Other observations

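Musk, the kinase at the centre of receptor clustering, separated the control limbs by Y-linked expression. It stood at 14.6 to 16.0 CPM in the 3 control limbs with Y-linked expression (mean 15.4) and at 4.61 to 9.32 CPM in the other 7 (mean 6.17), with no overlap. In a limma fit of the 10 control limbs with the antibody as a term the log2 difference was 1.20 ± 0.18 (adjusted p = 0.00321), where 450 of 13502 genes passed (3.33%) and Musk ranked 83 by p. None of the other 9 genes passed. Chrna1 had -0.49 (adjusted p = 0.152), Chrnd -0.47 (adjusted p = 0.151) and Rapsn -0.26 (adjusted p = 0.185). This comparison was chosen after seeing the data, the 3 libraries come from 3 mice, and the cause of the difference was not tested.

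Among libraries lacking Y-linked expression, Dok7 under PLA Ab injury (0.45, adjusted p = 0.0393, limma) and Rapsn between the antibodies in injured limbs (-0.34, adjusted p = 0.0225) passed, which they did not in all 20 libraries. The genes called there numbered 6060 and 6665 of 13502, against 3987 and 2474 in all 20 libraries. With Y-linked expression as a covariate Rapsn had -0.25 (adjusted p = 0.0499), where 4531 genes were called.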
